A study of Homo sapiens with 10 samples.

Results

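OVOL2 overexpression in mesenchymal PC3-EMT14 cells was described from the comparison of PC3-EMT14-OVOL2 (2 samples) with PC3-EMT14 (3 samples), which makes 5 of the 10 RNA-seq samples of the study. All 23170 gene entries and all 37557 isoform entries of this comparison were taken, with no choice among them by value. PC3 is an established human prostate cancer line. PC3-EMT14 is a stable mesenchymal derivative, isolated from luciferase-marked epithelial PC3-Epi cells after co-culture with macrophages, which were then removed by serial passage. PC3-EMT14-OVOL2 carries, in addition, a lentiviral construct for human OVOL2 with a V5 tag and was selected for it. The sample labels name PC3-EMT14 itself as the reference and mention no empty-vector line, and each line is 1 selected population, so effects of transduction and selection cannot be told apart from those of OVOL2. The other groups, PC3-Epi (2 samples) and PC3-EMT14-OVOL1 (3 samples), are used here only for side values.

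The authors deposited 1 FPKM value (fragments scaled to transcript length and library size) for each gene and group, combined over the samples of the group, so each value below is the authors' pooled value and has no SD, no n of its own and no test. A gene was counted as higher or lower when its 2 group values differed at least 2-fold and the larger was at least 1 FPKM. Whether a difference exceeds the spread between samples could not be examined, and the depth of the libraries is unknown. At or above 1 FPKM in either group were 12307 genes, of which 544 were higher in PC3-EMT14-OVOL2 (4.42%) and 360 lower (2.93%). These shares are the background for every group of genes described here. They include 60 higher and 66 lower small RNA entries (microRNAs, snoRNAs and the like), a kind that the listed gene groups do not hold. The median log2 fold over the 12307 genes was -0.04, and 15 of 15 housekeeping genes differed by less than 2-fold, with log2 folds from -0.27 (SDHA) to 0.65 (TFRC).

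OVOL2 is a zinc finger transcription factor of the OVO family, which is present in many epithelia and acts mainly as a repressor of transcription. Epithelial cells hold to each other through adherens junctions (cadherins and catenins), tight junctions (claudins, occludin and polarity proteins) and desmosomes, and ZEB, SNAI and TWIST factors repress many of these genes in the epithelial to mesenchymal transition (EMT). ESRP1 and ESRP2 are RNA-binding proteins that set epithelial splice forms. The reverse change, from mesenchymal to epithelial, is called MET, and the comparison asks how far OVOL2 moves PC3-EMT14 cells along it.

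**Figure D1:**
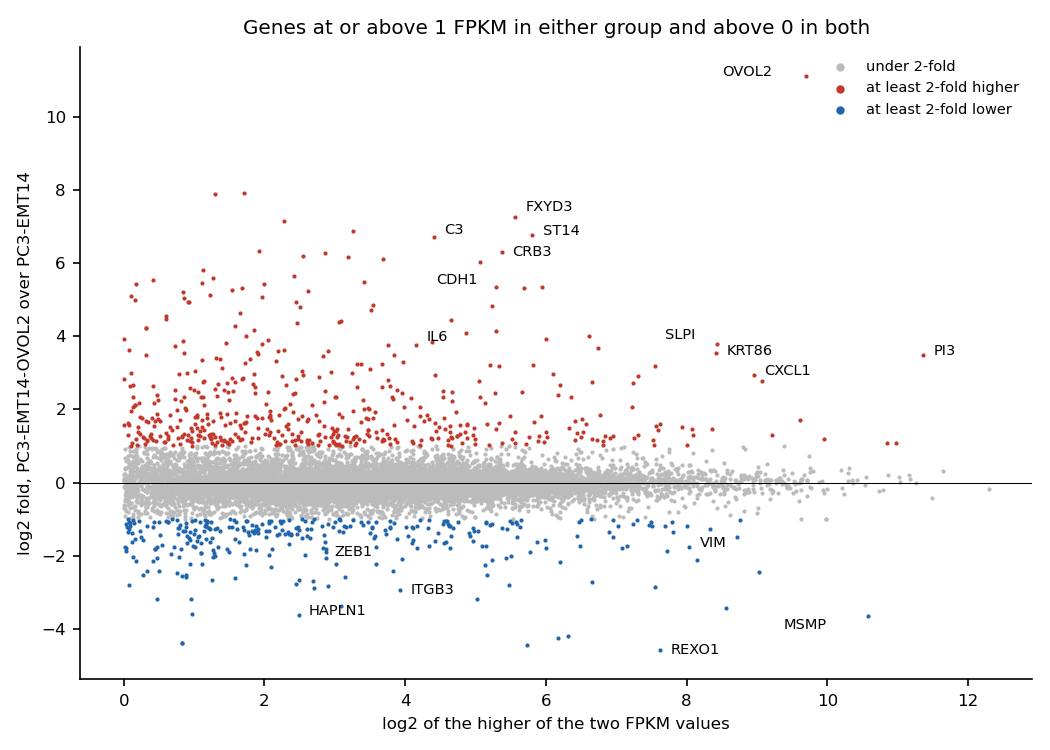
Each point is 1 gene at or above 1 FPKM in either group and above 0 in both, with the log2 of its higher FPKM value on the x axis and the log2 fold of PC3-EMT14-OVOL2 over PC3-EMT14 on the y axis. OVOL2 stands highest at 11.13, and among the labelled genes FXYD3, ST14, C3 and CRB3 follow above 6, while MSMP is the most abundant of the labelled genes with a negative fold.

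The OVOL2 gene (XLOC_013190; hg19 chromosome 20, 18004796 to 18038521) went from 0.370 FPKM without the construct to 831 FPKM with it, a log2 fold of 11.13. In its own table PC3-Epi had 9.91 FPKM of OVOL2, so the transduced line was far above the level of the epithelial line. The related gene OVOL1 remained below 1 FPKM in both groups, at 0.0236 and 0.0701 FPKM. The values of OVOL2 were made against the whole gene entry, which does not separate the construct from the endogenous gene.

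Among the transcription and splicing regulators of epithelial cells, 7 of the 13 at or above 1 FPKM were higher and 0 were lower, with a median log2 fold of 1.41. The 7 include OVOL2 itself, whose level the construct was made to raise. ESRP1, the epithelial splicing regulator, went from 0.402 to 11.7 FPKM, although Cuffdiff gave this gene the status FAIL, its mark for an estimate that did not complete. ESRP2, its paralog, was at 5.52 and 10.5 FPKM, just short of 2-fold. The ETS family factors EHF and ELF3, which are largely epithelial, went from 0.446 to 4.48 FPKM and from 8.14 to 21.6 FPKM. Of the grainyhead factors, GRHL1 went from 1.34 to 3.77 FPKM and GRHL3 from 0.0481 to 1.79 FPKM. GRHL2, the remaining member, stayed below the floor, at 0.102 and 0.544 FPKM, against 15.0 FPKM in PC3-Epi. Factors already abundant in PC3-EMT14 showed little difference: FOXA1 had 45.1 and 53.9 FPKM, KLF5 27.2 and 29.6 FPKM, and SPDEF 19.4 and 19.99 FPKM.

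The factors that drive EMT did not move together. ZEB1 (XLOC_002305; hg19 chromosome 10, 31608101 to 31818742), a repressor of E-cadherin, was 4.15-fold lower, from 7.36 to 1.77 FPKM. SNAI2 was also lower, from 3.92 to 1.80 FPKM, whereas SNAI1 was higher, from 1.30 to 2.65 FPKM, a log2 fold of 1.02 at the edge of the threshold. TWIST1 had 5.51 and 5.15 FPKM, and ZEB2 was below 1 FPKM in both groups, at 0.141 and 0.0492. Of the 12 genes of this group at or above 1 FPKM, 2 were lower, 1 was higher and 9 were neither. In its own table PC3-Epi had 0.130 FPKM of ZEB1, so ZEB1 in PC3-EMT14-OVOL2 was still above the level of the epithelial line.

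CDH1 (XLOC_007766; hg19 chromosome 16, 68771195 to 68869444), which encodes E-cadherin, went from 0.971 to 39.2 FPKM, a 40.4-fold difference. CDH3, which encodes P-cadherin and is its direct neighbour on the chromosome, went from 2.20 to 39.2 FPKM. N-cadherin (CDH2) was at 17.4 and 10.1 FPKM and cadherin-11 (CDH11) at 73.8 and 50.4 FPKM, both short of 2-fold. Transcripts of E-, P- and N-cadherin were all present with OVOL2. Of the catenins that bind the cadherin tail, plakoglobin (JUP) went from 20.2 to 46.0 FPKM, beta-catenin (CTNNB1) was at 94.9 and 84.6 FPKM, and alpha-catenin (CTNNA1) was near 0 in both groups, at 0.139 and 0.0787 FPKM. In all, 3 of the 11 adherens junction genes at or above 1 FPKM were higher and 0 lower.

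In the tight junction and polarity group 11 of 24 genes were higher and 0 lower, with a median log2 fold of 0.82. The polarity protein CRB3 showed the largest difference, from 0.525 to 41.5 FPKM, a 79.0-fold difference. LSR, which recruits proteins to tricellular junctions, went from 1.34 to 37.8 FPKM, and the tricellular and bicellular MARVEL proteins MARVELD2 and MARVELD3 went from 1.62 to 4.22 FPKM and from 0.0668 to 2.34 FPKM. Claudin-7 (CLDN7) went from 11.5 to 73.9 FPKM, claudin-1 (CLDN1) from 4.14 to 11.1 FPKM and occludin (OCLN) from 2.78 to 11.2 FPKM. Claudin-4 and claudin-3 were already expressed in the mesenchymal line and differed little, CLDN4 with 263 and 306 FPKM and CLDN3 with 24.6 and 25.9 FPKM. Among scaffolds, TJP3 went from 0.995 to 5.32 FPKM, cingulin (CGN) from 1.29 to 4.61 FPKM and INADL from 1.89 to 6.08 FPKM, while TJP1 had 12.9 and 18.3 FPKM. The polarity scaffold LLGL2 went from 14.2 to 39.3 FPKM, and LLGL1 had 11.5 and 10.6 FPKM. RAB25, a small GTPase of epithelial recycling endosomes, stayed below the floor, at 0.0548 and 0.122 FPKM, against 24.2 FPKM in PC3-Epi. Of the 11 desmosome genes 2 were higher and 0 lower, namely desmoplakin (DSP), from 3.04 to 7.23 FPKM, and plakophilin-3 (PKP3), from 13.1 to 40.2 FPKM. PKP1 had 88.6 and 88.3 FPKM.

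**Figure D2:**
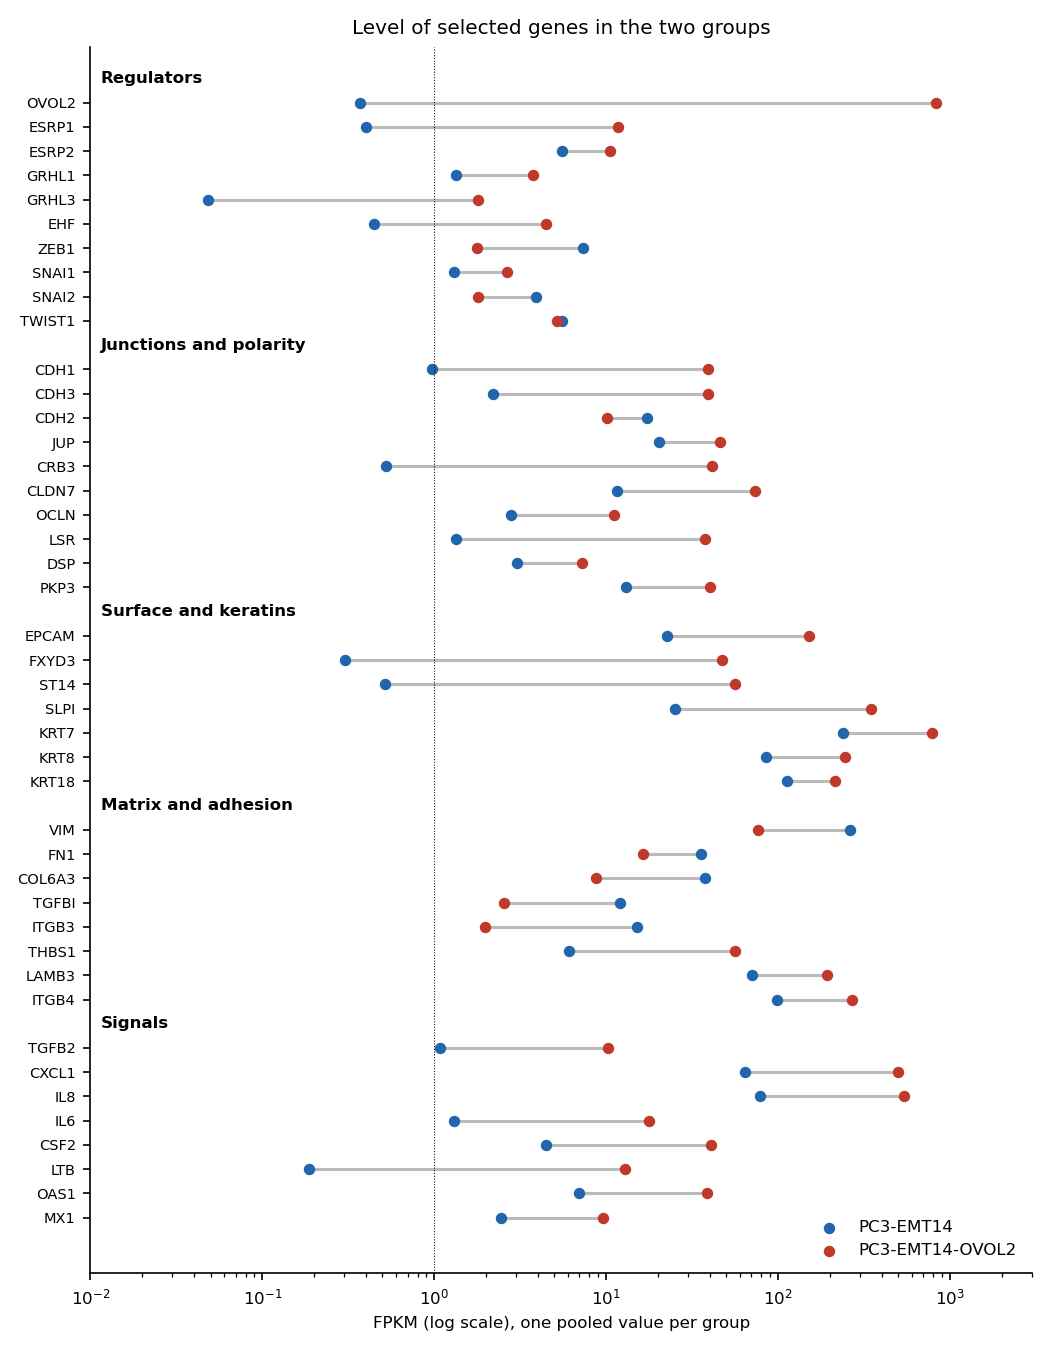
FPKM on a log axis for selected genes, with 1 blue point for PC3-EMT14 and 1 red point for PC3-EMT14-OVOL2 per gene, each a pooled value without an error bar, and a dotted line at 1 FPKM. CDH1, CRB3, LSR, FXYD3 and ST14 sit near or below the line in PC3-EMT14 and above 30 FPKM in PC3-EMT14-OVOL2, while VIM, at 262 and 76.9 FPKM, moves left and stays well above it.

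FXYD3, a regulator of the sodium pump, showed the largest fold after OVOL2 itself among genes reaching 10 FPKM, from 0.305 to 47.2 FPKM. The membrane serine protease matriptase (ST14) went from 0.515 to 55.8 FPKM and its partner prostasin (PRSS8) from 1.58 to 8.07 FPKM. Their inhibitor SPINT1 went from 28.7 to 80.4 FPKM, and SPINT2 was at 176 and 329 FPKM, just under 2-fold. EPCAM, an epithelial adhesion protein, went from 22.7 to 151 FPKM. CD24 had 77.7 and 77.6 FPKM. Of the 12 surface proteases and inhibitors 6 were higher and 1 lower (KLK10, from 6.07 to 2.53 FPKM). Of the 15 surface glycoproteins 9 were higher and 1 lower, the tetraspanin TSPAN8, from 11.8 to 4.26 FPKM.

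Keratins, the intermediate filament proteins of epithelia, were higher in 7 of 13 genes. The simple epithelial keratins KRT7 and KRT8 went from 238 to 786 FPKM and from 84.9 to 244 FPKM, and KRT18, the partner of KRT8, was at 113 and 215 FPKM. KRT19 had 649 and 862 FPKM. KRT6A and KRT16, which are induced in stressed or wounded epidermis, went from 1.15 to 25.1 FPKM and from 0.381 to 4.58 FPKM. The basal keratins KRT5 and KRT14 were below 0.1 FPKM in both groups. KRT15, another basal keratin, was well expressed in both, at 28.4 and 54.3 FPKM, just short of 2-fold. The only keratin counted as lower was KRT81, a hair keratin, listed at 1695 FPKM in PC3-EMT14 and at 0 with the status HIDATA, which Cuffdiff gives to a locus with too many fragments to process, so KRT81 was not measured in this line. The related hair keratins KRT86 (29.4 and 344 FPKM), KRT83 (65.3 and 197 FPKM) and KRT85 (8.27 and 107 FPKM) resemble it in sequence, and whether reads were split among these genes was not tested, so their values are uncertain. Vimentin (VIM), the intermediate filament protein of mesenchymal cells, was 3.41-fold lower, from 262 to 76.9 FPKM. It was the only one of 11 mesenchymal cytoskeleton genes to differ at least 2-fold, the others including ACTA2 (1.05 and 0.996 FPKM), MYL9 (10.3 and 8.86 FPKM) and FSCN1 (103 and 74.6 FPKM).

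The matrix was the group with the largest share of lower genes, 7 of 23, with 2 higher and a median log2 fold of -0.58. Fibronectin (FN1) went from 35.6 to 16.5 FPKM. The collagen VI chain COL6A3 went from 37.8 to 8.70 FPKM, whereas COL6A1 (175 and 141 FPKM) and COL6A2 (252 and 159 FPKM), which assemble with it, differed by less than 2-fold. HAPLN1, which links hyaluronan to proteoglycans, was 12.2-fold lower, from 5.60 to 0.458 FPKM. TGFBI, a secreted protein induced by TGF-beta, went from 12.03 to 2.54 FPKM. COL5A1, FBN1 and SPARC were lower as well, from 3.62 to 1.40, from 6.39 to 3.04 and from 4.18 to 1.68 FPKM. In the other direction, thrombospondin-1 (THBS1) went from 6.09 to 56.4 FPKM and the lysyl oxidase LOXL4 from 1.05 to 9.97 FPKM.

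Among the 18 laminin and integrin genes at or above 1 FPKM, 4 were higher and 1 lower. Integrin beta-3 (ITGB3), part of a receptor for vitronectin and fibronectin, was 7.67-fold lower, from 15.1 to 1.98 FPKM. Integrin beta-4 (ITGB4), the hemidesmosome subunit, went from 98.3 to 269 FPKM. The laminin chains LAMA3 and LAMB3, found in basement membranes, went from 64.1 to 158 FPKM and from 70.8 to 193 FPKM. Integrin alpha-6 (ITGA6), which pairs with beta-4, was not, at 79.4 and 52.9 FPKM. The remaining 13 laminin and integrin genes at or above the floor differed by less than 2-fold, among them ITGB1 (449 and 359 FPKM). In PC3-Epi LAMB3 had 49.8 FPKM and ITGB4 125 FPKM, both below the levels with OVOL2.

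Of 15 metalloproteinases and genes of the urokinase system, 5 were higher and 3 lower. Urokinase (PLAU) went from 954 to 2016 FPKM, while its receptor PLAUR had 61.8 and 59.0 FPKM and the other plasminogen activator PLAT went from 322 to 135 FPKM. Of the metalloproteinases MMP1 went from 6.89 to 14.8 FPKM, and MMP14 had 113 and 72.0 FPKM.

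**Figure D3:**
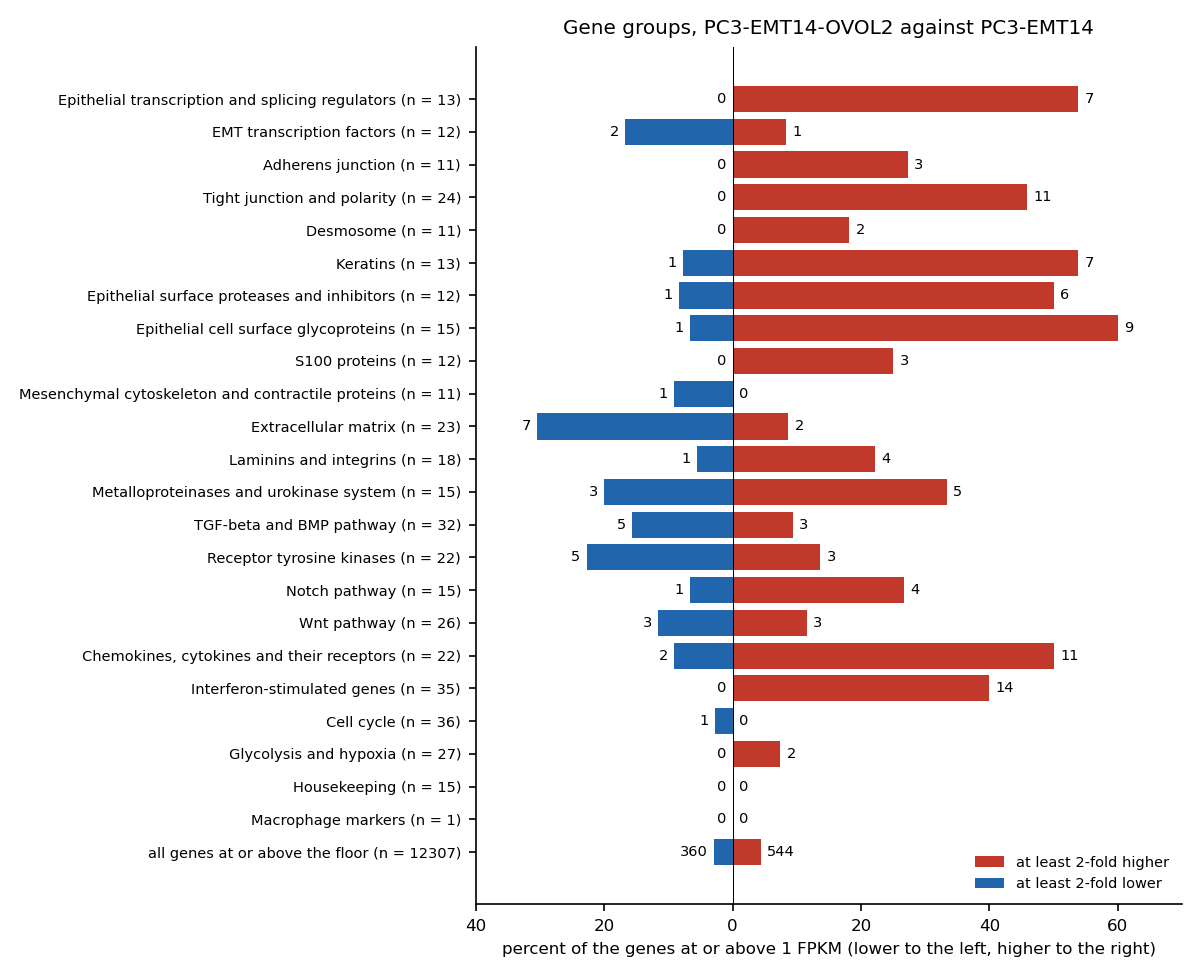
Percent of the genes at or above 1 FPKM in each group that were at least 2-fold higher (red, to the right) or lower (blue, to the left) in PC3-EMT14-OVOL2, with the number of genes at each bar end and the number measured beside the name. The epithelial groups, the cytokines and the interferon-stimulated genes extend to the right, the extracellular matrix extends furthest to the left with 7 genes, and housekeeping genes have 0 in either direction.

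The TGF-beta pathway, a common inducer of EMT, differed in both directions, with 3 of 32 genes higher and 5 lower. The ligand TGFB2 went from 1.09 to 10.3 FPKM, while TGFB1 had 48.4 and 34.9 FPKM. The activin subunit INHBA went from 51.4 to 124 FPKM, and its antagonist follistatin (FST) was at 337 and 669 FPKM. The latent TGF-beta binding protein LTBP1 went from 54.9 to 14.7 FPKM. The BMP antagonist noggin (NOG) went from 63.5 to 21.4 FPKM, BMP4 from 2.76 to 6.23 FPKM and the receptor BMPR1B from 7.50 to 3.38 FPKM. CTGF, a target of TGF-beta and YAP signals, went from 34.1 to 10.1 FPKM. The receptors TGFBR1 and TGFBR2 and the transducers SMAD2, SMAD3 and SMAD4 all differed by less than 2-fold, for example TGFBR2 with 42.2 and 34.3 FPKM.

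Among receptor tyrosine kinases 3 of 22 were higher and 5 lower. EGFR went from 9.14 to 27.4 FPKM, its relative ERBB3 from 3.73 to 7.55 FPKM, and the ephrin receptor EPHA1 from 0.162 to 6.17 FPKM. KDR and TIE1, known from endothelium, went from 15.6 to 3.68 FPKM and from 1.39 to 0.152 FPKM. FGFR1 went from 11.1 to 5.27 FPKM. AXL (45.3 and 41.1 FPKM) and MET (57.3 and 68.3 FPKM) did not differ 2-fold. In the Notch group 4 of 15 genes were higher and 1 lower. The ligand JAG2 (4.03 and 9.81 FPKM), the receptor NOTCH3 (0.665 and 2.17 FPKM) and HES4 (6.97 and 26.5 FPKM) were higher, and the target HEY1 was lower (64.3 and 18.7 FPKM). In the Wnt group 3 of 26 genes were higher, led by the ligand WNT9A (7.72 and 35.1 FPKM), and 3 were lower, including the receptors FZD4 (16.1 and 6.87 FPKM) and FZD8 (88.5 and 41.7 FPKM).

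Of 22 chemokine and cytokine genes and receptors, 11 were higher and 2 lower, with a median log2 fold of 1.09. The neutrophil chemokines CXCL1, CXCL2, CXCL3 and IL8 went from 64.6 to 496 FPKM, from 2.55 to 14.7 FPKM, from 3.97 to 37.1 FPKM and from 78.9 to 538 FPKM. IL6 went from 1.31 to 17.9 FPKM, the growth factor CSF2 from 4.47 to 40.5 FPKM and lymphotoxin beta (LTB) from 0.186 to 12.8 FPKM. IL1B was abundant in both groups, at 710 and 738 FPKM. The receptors CXCR4 and CXCR7, which bind the same chemokine, were the lower genes, from 1.25 to 0.232 FPKM and from 5.52 to 2.09 FPKM. The elastase inhibitor elafin (PI3) had the largest difference in FPKM of all genes, from 231 to 2619, and its relative SLPI went from 25.1 to 347 FPKM. Lipocalin-2 (LCN2), which binds bacterial siderophores, went from 0.510 to 33.4 FPKM, complement C3 from 0.202 to 21.2 FPKM, and the platelet-activating factor receptor PTAFR from 0.238 to 10.6 FPKM. Of 12 S100 genes 3 were higher and 0 lower. The calcium-binding proteins S100A14, S100A9 and S100P went from 1.28 to 51.4 FPKM, from 1.70 to 29.1 FPKM and from 20.8 to 188 FPKM, while S100A4, often used as a mesenchymal marker, had 59.99 and 51.0 FPKM.

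PC3-Epi, in its own table, had 265 FPKM of PI3, 73.7 of CXCL1, 2.55 of IL6, 3.61 of CSF2 and 2.94 of LTB, all well below the values with OVOL2. For CDH1 (50.6 FPKM), CRB3 (49.1 FPKM) and FXYD3 (36.9 FPKM) PC3-Epi was close to the values with OVOL2. For S100A14 (372 FPKM), ESRP1 (84.6 FPKM) and ST14 (135 FPKM) it was above them. PC3-EMT14-OVOL1, the line with the related factor, had 16.2 FPKM of CDH1, 16.04 of CRB3, 28.9 of ST14, 1203 of PI3, 306 of CXCL1, 8.22 of IL6 and 4.25 of ZEB1 in its own table against the same PC3-EMT14 samples. Values from different tables were scaled separately. The PC3-EMT14 values of this comparison were 0.958 to 0.970 times those in the table with PC3-Epi over 12226 genes, so the scaling differs by a nearly constant factor. Both tables use the same libraries, and this closeness is no check on the spread between samples.

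Interferon-stimulated genes, which respond to viral RNA and interferon, leaned the same way in this comparison: 14 of 35 were higher and 0 lower, with a median log2 fold of 0.73. OAS1, OAS2 and OAS3, sensors of double-stranded RNA, went from 7.00 to 38.6, from 4.70 to 12.7 and from 8.52 to 23.6 FPKM. MX1 went from 2.44 to 9.54 FPKM, IFITM1 from 4.12 to 23.2 FPKM, and the factors IRF7 and IRF9 from 9.55 to 22.0 FPKM and from 11.1 to 28.9 FPKM. IFIT1 (20.01 and 29.0 FPKM) and ISG15 (190 and 264 FPKM) were above PC3-EMT14 by less than 2-fold. PC3-EMT14 carries no lentiviral OVOL2 construct, although it derives from cells given a luciferase vector. PC3-EMT14-OVOL1, transduced with a separately sourced construct, had 2.42 FPKM of MX1 and 14.2 FPKM of OAS1. Whether a vector had a part in the values of these genes was not tested.

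For growth and metabolism genes the counts were near the shares over all genes, 4.42% higher and 2.93% lower. Of 36 cell cycle genes 0 were higher and 1 was lower, the CDK inhibitor CDKN2C, from 49.4 to 21.4 FPKM, and MKI67 had 14.7 and 18.3 FPKM. Of 27 glycolysis and hypoxia genes 2 were higher, carbonic anhydrase CA9, from 0.387 to 1.24 FPKM, and adrenomedullin (ADM), from 5.93 to 19.2 FPKM. Outside the groups above, the ferritin heavy chain FTH1 (866 and 1842 FPKM) and the retinaldehyde dehydrogenase ALDH1A3 (433 and 991 FPKM) were higher, while the abundant TPT1 had 2589 and 3195 FPKM. The mitochondrial protein C15orf48 went from 1.51 to 61.7 FPKM. MSMP, a small secreted protein, was 12.5-fold lower, from 1535 to 123 FPKM. ESM1, an endothelial proteoglycan, went from 44.5 to 6.38 FPKM, the homeobox gene GBX2 from 35.8 to 6.23 FPKM, and the noncoding NCRNA00261 from 32.5 to 3.56 FPKM.

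The identity of the cells was checked with markers. Of 16 macrophage markers, 15 were below 1 FPKM in both groups, and without CD68 (52.4 and 57.8 FPKM) their summed level was 0.583 FPKM without and 1.18 FPKM with OVOL2, with PTPRC at 0.0156 and 0.0299 FPKM. Prostate-specific antigen (KLK3) was listed at 0 in both groups, as PC3 is known for. Of the epithelial markers CDH1, EPCAM, KRT8, CLDN7 and OCLN were higher with OVOL2 while KRT18 and KRT19 were not by 2-fold, and of the mesenchymal markers VIM, ZEB1 and FN1 were lower while CDH2 was not by 2-fold. In bulk RNA, fewer cells of a kind and less RNA per cell cannot be told apart.

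Very short RNAs behaved differently from the other entries. Of 161 small RNA entries (microRNAs, snoRNAs and the like) at or above 1 FPKM, 126 were counted as higher or lower, and 78 of the 81 entries listed at 0 in one group were of this kind. Examples are SNORD29 (2340 FPKM and listed at 0) and SNORD68 (1424 FPKM and listed at 0). Without small RNA entries 484 genes were higher and 294 lower. Several protein-coding genes appeared among the largest differences only because a microRNA lies in the same entry. REXO1 went from 197 to 8.15 FPKM, but the microRNA MIR1909 made up 189 FPKM of the first value, and the transcripts of REXO1 itself had 7.16 and 8.15 FPKM. Entries of the same kind were TMEM42 with MIR564, CPSF1 with MIR939 and ZNF207 with MIR632, and their own transcripts were at 3.24 and 4.34, 56.0 and 65.3, and 46.3 and 39.3 FPKM. NOP56 went from 118 to 329 FPKM with MIR1292 and SNORD86 included and had 118 and 130 FPKM without them.

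Promoters of the higher genes were searched for short motifs, since ZEB and SNAI factors bind the E-box CAGGTG, and OVO and grainyhead factors bind other letters. Promoter windows of 300 bases (250 before and 50 from the transcription start) came from RefSeq on GRCh38.p14, and 9459 of the 12307 genes had one. Coverage was lower in the classes compared, with windows for 332 of 544 higher genes and 210 of 360 lower genes. Of the 138 genes at 8-fold higher or more, 64 had one. Only 1 window per symbol was read, so other starts of a gene were not searched. CAGGTG, on either strand, was in 40.1% of 332 windows of higher genes, in 17.1% of 210 windows of lower genes and in 18.0% of all 9459. It was in 20.6% of all 27305 windows of the reference. Among higher genes the share was larger in those with a larger difference: 19.9% at 1.5- to 2-fold higher, 34.0% at 2- to 4-fold, 26 of 65 windows at 4- to 8-fold and 59.4% of 64 windows at 8-fold or more. Among lower genes it was 15.6% at 1.5- to 2-fold and 26.5% at 4-fold or more, the latter in 9 of 34 windows. At least 2 matches were found in 12.3% of the windows of higher genes, 0.476% of those of lower genes and 2.47% of all. Other E-boxes did not follow this order. CAGCTG was in 15.96% of the higher, 21.9% of the lower and 16.5% of all windows, and CACGTG in 6.93%, 5.71% and 10.1%. The median GC content of the windows was 62.2% for the higher genes, 56.7% at 8-fold or more, 63.3% for the lower genes and 65.7% over all, and its part in these shares was not tested. Most of the 64 genes at 8-fold or more were under 1 FPKM in PC3-EMT14 and reached the floor only with OVOL2. Examples are CRB3, at 0.525 FPKM in PC3-EMT14, and GRHL3, at 0.0481 FPKM. The classes were not matched for level in PC3-EMT14, and the part of that level in these shares was not tested. The OVO type cores CCGTTA (1.20%, 4.76% and 4.11% of higher, lower and all) and GTTACA (6.93%, 6.19% and 4.25%) and the grainyhead type AACCNGTT (1.51%, 0.476% and 1.30%) were each in few windows. The longer OVOL2 consensus that the paper used for the ZEB1 promoter was not searched.

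**Figure D4:**
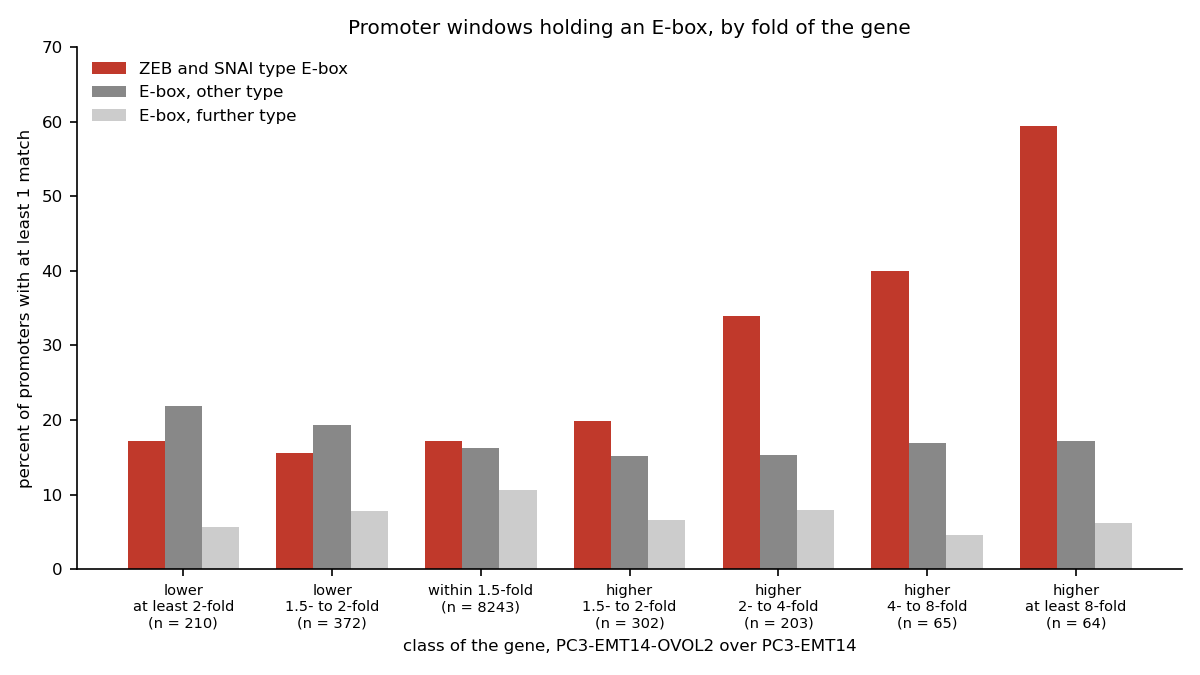
Percent of promoter windows with at least 1 match to each of 3 E-boxes, by the fold of the gene between PC3-EMT14-OVOL2 and PC3-EMT14, with the number of windows in each class under its name; the other bars are the E-boxes with the other central bases named in the text. The ZEB and SNAI type goes from 17.2% of windows within 1.5-fold to 59.4% at 8-fold higher or more, and the other types stay at or below 21.9% in every class. Most genes of the 8-fold class reached 1 FPKM only with OVOL2, and the classes were not matched for level.

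The windows of 5 higher genes with a match show how the E-boxes lie, and the window of FXYD3, the gene with the largest fold after OVOL2 among those reaching 10 FPKM, holds 0 matches. Each is printed 5′ to 3′ on the strand of the gene with CAGGTG and its reverse complement CACCTG in capitals. CRB3 (chr19:6464021-6464320, plus strand, 41.5 FPKM with OVOL2) holds 5 matches within 300 bases. GRHL3 (chr1:24319107-24319406, plus strand), LAD1 (chr1:201399275-201399574, minus strand), S100A14 (chr1:153616276-153616575, minus strand) and ARHGEF16 (chr1:3454415-3454714, plus strand) hold 2, 2, 1 and 3. LAD1, an anchoring filament protein of basement membranes, went from 4.21 to 64.4 FPKM, and ARHGEF16, a guanine nucleotide exchange factor, from 0.430 to 11.4 FPKM. FXYD3 lies at chr19:35117750-35118049 on the plus strand.
CRB3: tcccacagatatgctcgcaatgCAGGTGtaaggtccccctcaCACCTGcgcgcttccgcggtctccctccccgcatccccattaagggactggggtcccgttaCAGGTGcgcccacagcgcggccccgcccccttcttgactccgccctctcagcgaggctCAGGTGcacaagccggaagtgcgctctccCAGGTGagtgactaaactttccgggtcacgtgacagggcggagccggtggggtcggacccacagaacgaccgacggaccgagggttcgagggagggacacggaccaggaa
GRHL3: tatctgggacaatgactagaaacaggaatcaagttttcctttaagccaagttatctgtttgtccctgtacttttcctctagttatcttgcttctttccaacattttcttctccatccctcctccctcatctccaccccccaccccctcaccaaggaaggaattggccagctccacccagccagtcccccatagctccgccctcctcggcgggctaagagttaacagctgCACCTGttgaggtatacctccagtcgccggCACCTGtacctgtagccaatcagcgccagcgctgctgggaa
LAD1: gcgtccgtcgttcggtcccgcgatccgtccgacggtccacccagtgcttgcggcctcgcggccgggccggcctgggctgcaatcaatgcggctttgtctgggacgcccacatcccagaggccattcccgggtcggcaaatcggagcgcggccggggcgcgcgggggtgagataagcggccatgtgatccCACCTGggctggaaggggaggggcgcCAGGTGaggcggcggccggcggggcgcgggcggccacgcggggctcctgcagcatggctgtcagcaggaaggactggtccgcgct
S100A14: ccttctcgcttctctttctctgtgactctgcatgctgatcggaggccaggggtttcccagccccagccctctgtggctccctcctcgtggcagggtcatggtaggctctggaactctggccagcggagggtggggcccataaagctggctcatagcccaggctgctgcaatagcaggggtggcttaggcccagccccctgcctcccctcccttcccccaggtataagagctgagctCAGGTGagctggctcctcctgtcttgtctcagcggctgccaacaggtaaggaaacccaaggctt
ARHGEF16: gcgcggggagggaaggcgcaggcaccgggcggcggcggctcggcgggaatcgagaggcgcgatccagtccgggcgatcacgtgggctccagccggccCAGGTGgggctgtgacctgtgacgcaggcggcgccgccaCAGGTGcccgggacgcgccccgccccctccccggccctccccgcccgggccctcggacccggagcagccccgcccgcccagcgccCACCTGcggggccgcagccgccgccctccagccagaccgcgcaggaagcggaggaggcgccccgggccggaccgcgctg
FXYD3: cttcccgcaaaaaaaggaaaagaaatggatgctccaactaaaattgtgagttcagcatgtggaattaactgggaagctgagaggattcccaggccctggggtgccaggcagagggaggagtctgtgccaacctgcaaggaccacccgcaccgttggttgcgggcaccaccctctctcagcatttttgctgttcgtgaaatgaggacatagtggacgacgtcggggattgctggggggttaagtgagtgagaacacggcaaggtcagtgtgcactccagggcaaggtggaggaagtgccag
A match is a run of letters in the reference and says nothing of binding in these cells. Promoters of CDH1, CDH3, ST14, ESRP1 and EPCAM were not analysed here.

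Splicing was followed as the share of each isoform in the summed FPKM of its gene. Of 3510 genes with more than 1 isoform and at least 5 FPKM in both groups, 65 (1.85%) had an isoform whose share differed by 25 percentage points or more, and the median largest shift was 2.88 points. In 56 of the 65 the gene itself differed by less than 2-fold. Of the 65, 5 had a small RNA isoform in the entry and 4 had an isoform of status FAIL. The shifts in REXO1, CPSF1, ZNF207 and NOP56, among the largest, were shares of a microRNA in the entry and not splicing of the gene. The largest shift without a microRNA in the entry was in SLC44A2, a choline transporter, where isoform TCONS_00016292 went from 83.0% to 18.9% and TCONS_00016293 from 17.0% to 81.1%, at 34.6 and 28.2 FPKM for the gene. In PC3-Epi the second of these made up 98.4%. Further large shifts in DNM2, S100A13, SLC37A4, SIGIRR and CORO1B involve isoforms that Cuffdiff marked FAIL, NOTEST or LOWDATA. C1orf106, whose isoforms had the status OK, went from 22.0% to 78.4% for TCONS_00001538.

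Of the 30 genes listed as targets of ESRP splicing, 20 met the level and isoform conditions. The median largest shift of the 20 was 9.77 points. A shift of 25 points or more was found in 4 of the 20 (SLC44A2, PALLD, CD44 and ENAH). All of these genes, and further members of the list, are also reported by the paper as changed in isoform use in the same libraries. The list was chosen with earlier results of these data known. Its shifts are therefore no independent comparison of ESRP targets with other genes. CD44, the hyaluronan receptor, is known for short standard forms in mesenchymal and longer variant forms in epithelial cells. Its main isoform TCONS_00005418 went from 93.9% to 63.9%, while TCONS_00005417 went from 4.99% to 25.4% and TCONS_00005416 from 0.921% to 10.1%, and the gene had 42.2 and 50.6 FPKM. In PC3-Epi these isoforms made up 11.5%, 46.9% and 40.1%. ENAH, an actin regulator, went from 15.7% to 41.2% for TCONS_00003514, against 66.1% in PC3-Epi. PALLD, an actin cross-linker, went from 18.7% to 49.3% for TCONS_00025520, past the 35.5% of PC3-Epi. The kinase MAP3K7 went from 17.2% to 39.2% for TCONS_00029273, against 48.4% in PC3-Epi, and SPRED2, an inhibitor of Ras signalling, from 22.0% to 2.503% for TCONS_00019924, against 4.38% in PC3-Epi. SLC37A2 and EPB41L5 had under 5 FPKM in at least 1 group and were not counted. Isoform TCONS_00006175 of SLC37A2 went from 1.70% to 40.5%, and TCONS_00019103 of EPB41L5 from 45.2% to 81.8%. Other targets hardly shifted, with 6 of the 20 under 5 points, among them SCRIB (0.436 points), KIF1B (1.24 points) and RPS24 (0.189 points). Isoforms are named only by their entry, so the exons behind these shares were not analysed here.

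**Figure D5:**
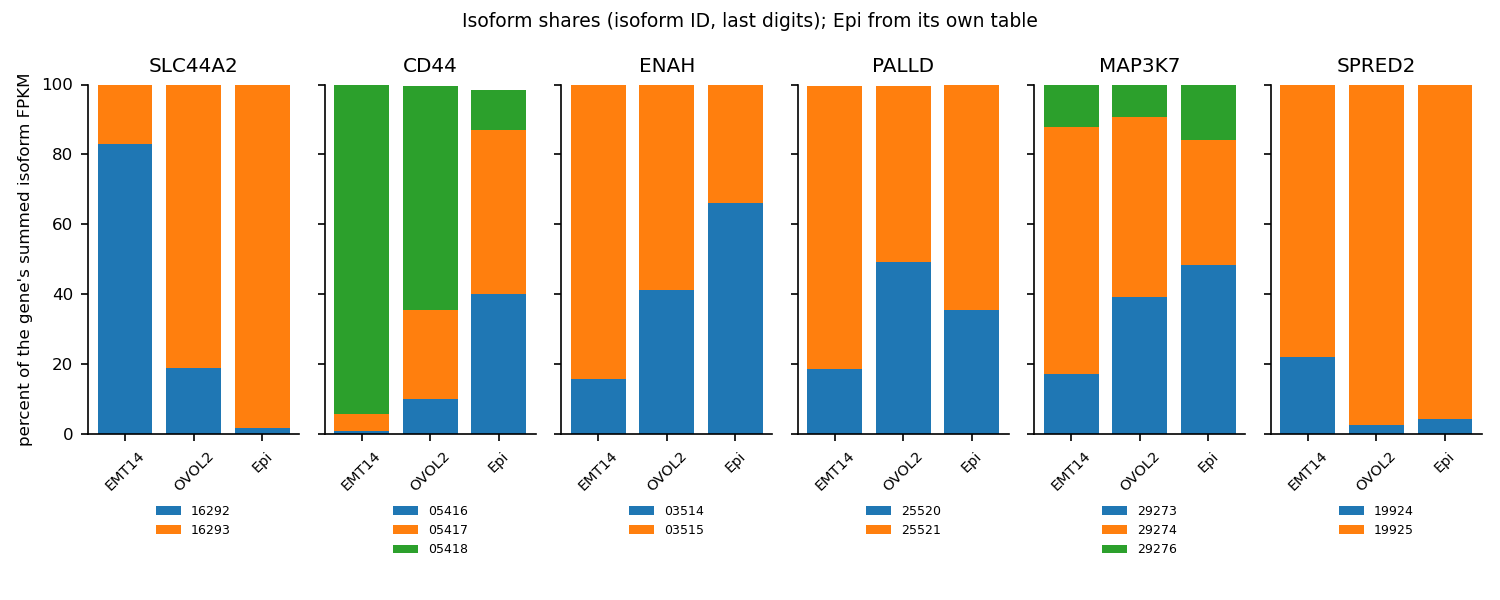
Stacked bars of isoform shares, in percent of the summed isoform FPKM of a gene, in PC3-EMT14, PC3-EMT14-OVOL2 and PC3-Epi (from its own table), for 6 genes, with isoforms above 2% in any group named by the last digits of their entry. In SLC44A2, CD44 and ENAH the isoform shares of PC3-EMT14-OVOL2 lie between those of the other groups, for example 15.7%, 41.2% and 66.1% for the lower segment of ENAH, while in PALLD and SPRED2 they lie beyond those of PC3-Epi.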

How the data were processed

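RNA-seq of PC3 derivatives was analysed from the processed tables. The authors aligned paired reads with TopHat to transcripts of UCSC hg19 and quantified them in Cuffdiff with upper-quartile normalization, multi-read correction and bias correction. The deposited FPKM values are pooled, 1 per group, gene or isoform and table. Columns of the authors' fold changes, test statistics, p-values and calls hold their own comparisons and were not used. The status column was read as a quality mark. The tables hold 0 columns with values per sample.

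Folds were computed without a pseudocount, with a floor of 1 FPKM and a threshold of 2-fold, in Python 3.11.15 with numpy 2.4.6 and pandas 2.3.3, and plots were drawn with matplotlib 3.10.9. The calling steps were tested on simulated data. A symbol with several entries was read from its highest. Isoform shares were taken over the summed isoform FPKM of an entry, with a floor of 5 FPKM in both groups and a shift of 25 points. Promoter windows were matched by symbol, or by an older name that is not a current symbol.

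Genes named are OVOL1 and OVOL2, members of the 24 lists, the cell type markers (KLK3 among them), the 12 largest folds in each direction among genes reaching 10 FPKM, the 6 largest differences in FPKM in each direction, the 10 largest isoform shifts and the listed ESRP targets, with further genes (KRT83, KRT85, LAD1, ARHGEF16) chosen after their values were seen. LAD1 and ARHGEF16 were picked for their promoters. Some list members are counted with their list and are not reported here by name. The members and lists were chosen with earlier results of these data known. The alternatives tried were other floors, pseudocounts, folds, centring, status and tables, and, chosen after seeing the data, leaving out small RNAs, stricter isoform status, other promoter thresholds and other E-boxes. Positions are on hg19, counted from 1, except promoter windows.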

Additional observations from a re-analysis of the deposited data

How the results depend on the processing

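The values are pooled and carry no replicate, so no library could be left out. No paired analysis was possible because each group has 1 pooled value per table. The direction of each of the 154 named genes above 0 in both groups held under each pseudocount, centring and table alternative. This is no check on the directions. A pseudocount added to both values cannot turn a fold, and centring used a median log2 fold of only -0.04. The other tables hold the same libraries. With small RNAs left out, a setting chosen after seeing the data, REXO1 and TMEM42 turned from lower to log2 folds of 0.19 and 0.42. The counts of 544 higher and 360 lower genes depend on the floor and the fold: 2267 and 1714 with no floor, 287 and 192 at 5 FPKM, 196 and 142 at 10 FPKM, 999 and 852 at 1.5-fold, and 233 and 103 at 4-fold. A pseudocount of 1 FPKM left 379 higher and 216 lower genes. The pseudocount of 0.1, centring, status OK alone, values from other tables and leaving out small RNAs kept both counts within 1.5 times, at 483 to 579 higher and 290 to 383 lower. Over all lists together, 102 genes were higher and 34 lower. These counts were 56 lower with no floor, 58 and 18 at 10 FPKM, 62 lower at 1.5-fold, and 50 and 12 at 4-fold. With a pseudocount of 1 FPKM, 27 of 154 named genes fell under 2-fold, among them SNAI1, SNAI2, FGFR1, ERBB3 and SPARC. SNAI1 and ERBB3 also did so with values from other tables. The 65 isoform shifts became 128 at a gene level of 1 FPKM, 40 at 10 FPKM, 213 at 15 points and 13 at 40 points. Only 21 remained in genes whose isoforms all had status OK or were at 0, a setting chosen after seeing the data. The share of windows of higher genes with CAGGTG was 30.4% at 1.5-fold and 49.6% at 4-fold, both chosen after seeing the data.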
